A study of Mus musculus with 6 samples.

Results

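The tissue inhibitors of metalloproteinases (TIMPs) and the plasminogen activator system were followed through 9 genes, chosen by symbol: the TIMP genes Timp1, Timp2 and Timp3, the membrane inhibitor gene Reck, the plasminogen activator genes Plat and Plau, the receptor gene Plaur, and the protease inhibitor genes Serpine2 and Tfpi2. All 9 were found among the 21988 gene symbols of the deposited table, and all 9 were among the 13332 genes with at least 1 TPM in at least 2 libraries. TPM are transcript abundances corrected for transcript length and scaled within each library. The cells were mouse embryonic fibroblasts (MEFs), taken from C57BL/6 embryos at day 13.5 of gestation, grown in medium with 10% fetal bovine serum and passaged without any other treatment that the labels name. They were harvested at population doubling (PD) 2, 8 or 14, where a doubling is the log2 of cells counted over cells seeded and the doublings of all passages are summed. By its title the series is about senescence, in which cells stop dividing for good and secrete many proteins.

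Each of the 3 groups had 2 libraries. Replicate 1 was strand-specific, with ribosomal RNA removed (rRNA-depleted, here called depleted). Replicate 2 was a poly(A)-enriched library, so replicate number and library method cannot be told apart. The labels do not say that the libraries came from separate cultures. In the main tests library method was a term, so p-values measure only how far the 2 methods disagree on the changes between harvests. That spread may be technical. Deposited TPM summed to 1000000 in the poly(A) libraries and to between 93.7% and 95.1% of that in the rRNA-depleted ones. TPM keep no read numbers, so depth is unknown. Of 10 fibroblast markers all 10 passed the filter, and their summed level was 20177, 29191 and 29711 TPM at PD2, PD8 and PD14 with depletion and 15072, 23075 and 19933 TPM with poly(A) enrichment. Between PD2 and PD14, 3 of the 10 (Col3a1, Dcn and Lum) were called higher, where 6.41% of all genes were, and 0 lower (4.77%). Not all 10 went up: Thy1 went from 322 to 116 TPM with depletion and from 931 to 972 TPM with poly(A) enrichment. The part of these marker changes in the rises given for the 9 genes was not tested. Pecam1 and Cdh5 (endothelium), Epcam and Cdh1 (epithelium) and Myod1 (muscle) stayed below 1 TPM in every library. Other markers of those types were present, with Kdr at up to 6.65 TPM, Krt19 at up to 28.5 TPM and Des at up to 48.5 TPM, as were the macrophage markers Lyz2, Cd68 and Adgre1. Bulk libraries cannot tell fewer cells of a type from less RNA per cell.

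The matrix around fibroblasts is cut by metalloproteinases and by plasmin. TIMPs are secreted proteins that bind the active site of metalloproteinases, and RECK is a membrane-anchored glycoprotein that restrains several of them. Plasmin is made from plasminogen by the urokinase-type activator (uPA, encoded by Plau), which works on the cell surface when bound to its receptor uPAR (Plaur), and by the tissue-type activator (tPA, Plat). Protease nexin-1, encoded by Serpine2, is a serpin that traps thrombin, plasmin and both activators. TFPI2, encoded by Tfpi2, is a Kunitz-type inhibitor deposited in the matrix that blocks plasmin, trypsin and the tissue factor pathway. Several of these proteins are counted among the secreted products of senescent fibroblasts.

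Promoter windows are shown first for 4 of the members that moved between PD2 and PD14, since Serpine2, Reck and Timp3 were higher at PD14 and Tfpi2 lower. RefSeq on GRCm38.p6 gave a start for 7 of the 9 genes. The 250 bases before each start were searched on both strands for the AP-1 motif, written TGANTCA. The GC box was searched as GGGCGG, the TATA box as TATAAA and the CCAAT box by the letters of its name. GC box matches may overlap each other. Only the part of a window outside every GENCODE exon is printed, 5′ to 3′ along the gene, with complete matches in capitals. The starts of the Serpine2 and Timp3 windows and of both printed Tfpi2 windows lie inside the span of the GENCODE gene. Of the 3 Tfpi2 windows the innermost and the middle one are shown.
Serpine2 at chr1:79858697-79858915, strand -: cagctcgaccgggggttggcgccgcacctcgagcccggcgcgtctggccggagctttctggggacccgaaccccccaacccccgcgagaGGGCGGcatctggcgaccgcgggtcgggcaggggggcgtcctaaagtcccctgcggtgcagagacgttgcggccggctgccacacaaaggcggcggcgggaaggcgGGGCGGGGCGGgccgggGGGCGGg
Reck at chr4:43875280-43875529, strand +: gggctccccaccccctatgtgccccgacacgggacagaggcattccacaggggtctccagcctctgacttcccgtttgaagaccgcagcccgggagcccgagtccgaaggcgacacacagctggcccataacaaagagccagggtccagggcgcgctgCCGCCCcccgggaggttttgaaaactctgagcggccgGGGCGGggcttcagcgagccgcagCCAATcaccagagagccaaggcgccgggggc
Timp3 at chr10:86300162-86300371, strand +: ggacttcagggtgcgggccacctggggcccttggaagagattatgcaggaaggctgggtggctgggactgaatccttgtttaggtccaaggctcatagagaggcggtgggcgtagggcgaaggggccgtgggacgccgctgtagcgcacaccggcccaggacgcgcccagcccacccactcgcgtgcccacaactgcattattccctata
Tfpi2 at chr6:3968377-3968625, strand -: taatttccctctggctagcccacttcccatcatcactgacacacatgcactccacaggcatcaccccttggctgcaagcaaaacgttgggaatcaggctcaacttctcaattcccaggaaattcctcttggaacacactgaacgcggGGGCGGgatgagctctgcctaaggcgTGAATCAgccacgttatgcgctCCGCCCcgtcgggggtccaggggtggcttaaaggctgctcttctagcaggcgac
Tfpi2 at chr6:3988920-3989108, strand -: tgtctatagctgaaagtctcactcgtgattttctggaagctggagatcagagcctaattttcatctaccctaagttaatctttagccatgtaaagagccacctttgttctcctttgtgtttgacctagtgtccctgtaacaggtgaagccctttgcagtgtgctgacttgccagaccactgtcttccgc
The GC box was found in at least 1 window of all 7 genes with a start, but not in the middle and outermost Tfpi2 windows. Of 32851 mouse windows 32.7% held one. Members are counted here by gene, and the shares of all windows by window. Serpine2 held 6 matches, 4 of them in the printed stretch, of which those at 55 and 50 bases before the start overlap, in a window with 78.8% G and C against a median of 52.4% over all windows. TGANTCA was found for Plaur, 69 bases before its start, and in the innermost window of Tfpi2, 77 bases before that start, against 6.75% of all windows. CCAAT was found for 4 genes (33.8% of all windows) and TATAAA for 0 (12.4%). The match 15 bases before the Timp3 start lies in an annotated exon and is not printed. These are matches of letters, not measured sites.

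Over the whole passage series, PD14 against PD2, the inhibitor genes Serpine2, Timp2, Reck and Timp3 rose and the inhibitor gene Tfpi2 fell. Serpine2 was 3.54-fold and 5.61-fold higher in the depleted and the poly(A) pair, Timp2 2.43-fold and 3.91-fold, Reck 2.96-fold and 3.28-fold, and Timp3 1.88-fold and 2.70-fold. Tfpi2 was 8.10-fold and 9.46-fold lower. The activator genes Plat and Plau, the receptor gene Plaur and Timp1 did not pass the test. By limma on log2(TPM + 1), with library method as a term and adjustment over all 13332 genes, 5 of the 9 passed an adjusted p of 0.05, where 11.2% of all genes did. The 4 higher members stand against 6.41% of all genes called higher, and the 1 lower member against 4.77% called lower. Of all genes 854 were called higher and 636 lower, a split that quantile normalization changed to 736 and 834. The median fitted log2 change was 0.19 over the 9 members and 0.06 over all genes tested.

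By unadjusted p under 0.05, 7 of the 9 passed, where 32% of all genes did. Both PD14 libraries lay above both PD2 libraries for 4 of the 9 (22.4% of all genes) and below them for 1, Plaur (15.8%). The calls depended on single libraries. When any 1 of the 2 PD8 or the 2 PD14 libraries was left out, the members lost their calls in limma, as did nearly all other genes. Over all left-out libraries the adjusted p ran from 0.00516 to 0.0770 for Reck, from 0.00524 to 0.0769 for Serpine2, from 0.00619 to 0.0831 for Timp2, from 0.00799 to 0.0803 for Tfpi2 and from 0.0179 to 0.0977 for Timp3. Each of these 5 genes kept its direction. The term for library method mattered too: without it 0 of the 9 passed in limma, and 0 of all 13332 genes did. In that fit 5 of the 9 had an unadjusted p under 0.05, and the share of all genes under it was not counted.

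**Figure D1:**
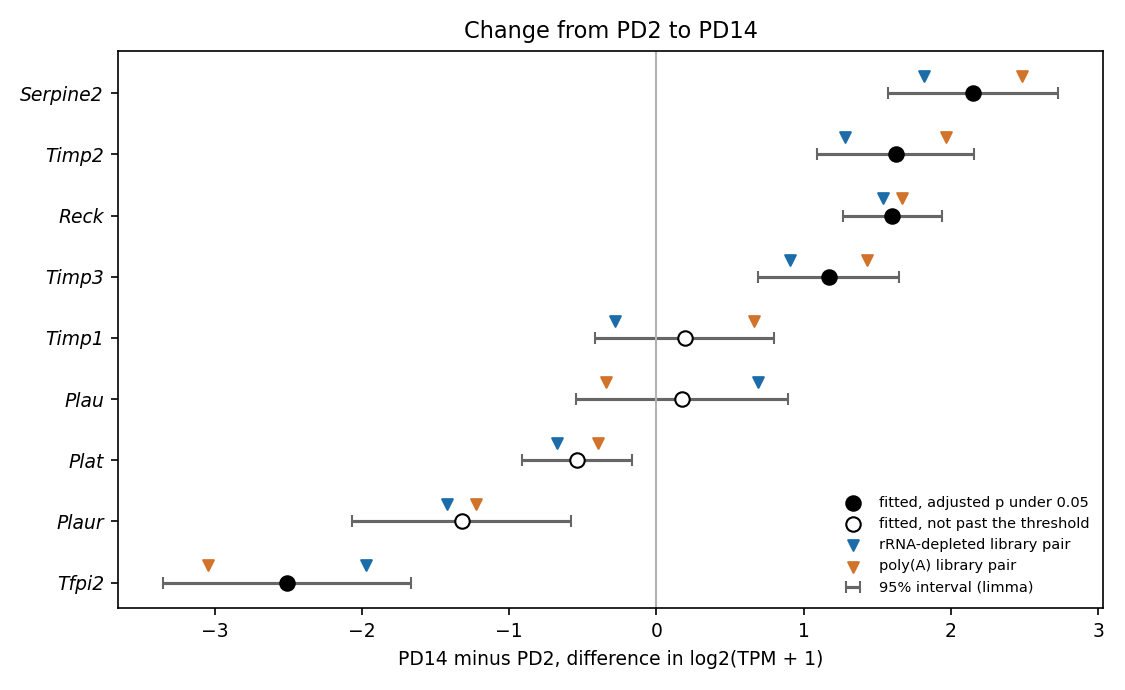
Difference in log2(TPM + 1) between PD14 and PD2 (x axis) for the 9 genes. Circles are fitted values with their 95% interval, filled where the adjusted p was under 0.05, and triangles are the single differences of the rRNA-depleted and the poly(A) pair; Timp1 and Plau have triangles on both sides of 0.

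Timp2 encodes the inhibitor that also takes part in activating pro-MMP2 at the cell surface together with MMP14 (chromosome 11, 118301069 to 118355740 on mm10). Its level was 794, 1750.3 and 1934 TPM in the depleted libraries, in the order PD2, PD8 and PD14. In the poly(A) libraries it was 555, 1412 and 2170.4 TPM. Both PD8 and both PD14 libraries lay above both PD2 libraries, and both PD14 libraries above both PD8 libraries, so no 2 groups overlapped. The fitted log2 change from PD2 to PD14 was 1.62 ± 0.21 (SE, n = 2 libraries per group; limma adjusted p = 0.0214). In every library Timp2 lay above at least 98.1% of the genes tested.

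Timp3 encodes the TIMP that stays bound to the matrix and also inhibits ADAM and ADAMTS proteases (chromosome 10, 86300372 to 86349506). It was listed at 523, 1085 and 981 TPM in the depleted libraries and at 449, 908 and 1214 TPM in the poly(A) libraries. The PD2 libraries were again the lowest, and PD14 was below PD8 in the depleted pair but above it in the poly(A) pair. The fitted change was 1.17 ± 0.19 (limma adjusted p = 0.0302). Timp3 lies within Syn3, a synapsin gene on the opposite strand, and shares 1733 exonic bases with it. Syn3 was at most 1.48 TPM in any library.

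Timp1 encodes a secreted TIMP induced by growth factors and cytokines (chromosome X, 20870166 to 20874735). Its level was 354, 379 and 292 TPM in the depleted libraries and 624, 885 and 989 TPM in the poly(A) libraries. The pairs went opposite ways between PD2 and PD14, at -0.28 and 0.66 on the log2 scale, and the PD14 libraries included both the lowest and the highest value. The fitted change was 0.19 with a 95% interval from -0.42 to 0.80 (limma adjusted p = 0.616), which leaves room for a change in either direction. Timp1 lies inside Syn1 on the opposite strand and shares 0 exonic bases with it.

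The makeup of the TIMP transcripts shifted with these levels. The summed level of the 3 TIMP genes was 1671, 3214 and 3207 TPM in the depleted libraries and 1628, 3206 and 4374 TPM in the poly(A) libraries. Timp1 made up 21.2%, 11.8% and 9.09% of that sum in the depleted libraries, against 38.4%, 27.6% and 22.6% in the poly(A) ones, so its share was lower at each later harvest in both methods. Timp2 made up 47.5%, 54.5% and 60.3%, and 34.1%, 44.1% and 49.6%. Timp3 held between 27.6% and 33.7% in all 6 libraries. At PD2 in the poly(A) library Timp1 was the most abundant of the 9 genes, and in the other 5 libraries Timp2 was. A difference between the changes of Timp1 and Timp2 was not tested. The fourth family member, Timp4, was low, at 0.0941, 1.40 and 3.40 TPM and at 0.0506, 0.124 and 0.195 TPM.

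**Figure D2:**
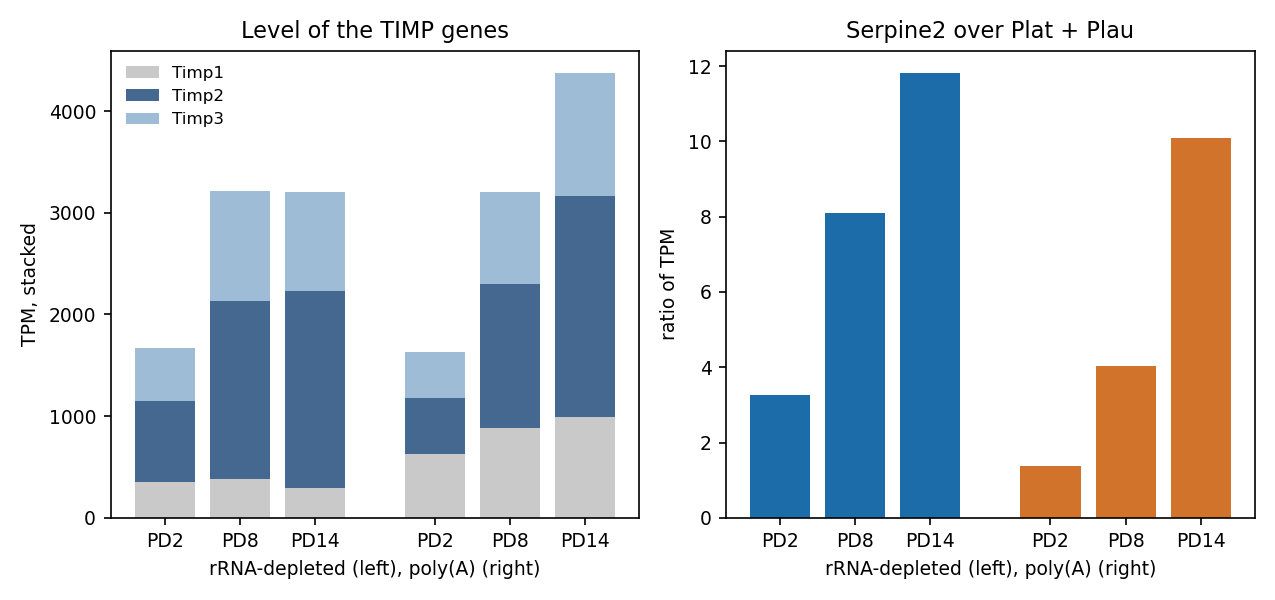
Left, TPM of Timp1, Timp2 and Timp3 stacked for each library; right, the ratio of Serpine2 TPM to the summed TPM of Plat and Plau. The x axis gives PD2, PD8 and PD14 for the rRNA-depleted libraries on the left and the poly(A) libraries on the right, each bar 1 library; the TIMP stack is lowest and the ratio smallest at PD2 in both methods.

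Reck (chromosome 4, 43875530 to 43944806) was listed at 35.7, 82.6 and 105 TPM in the depleted libraries. In the poly(A) libraries it was at 19.3, 41.6 and 63.4 TPM. It was higher at each later harvest in both methods, and both PD8 and both PD14 libraries lay above both PD2 libraries. The fitted change of 1.60 ± 0.13 (limma adjusted p = 0.0166) had the smallest SE of the 9 members, and the pairs gave 1.54 and 1.67. Reck also differed between methods, by 0.85 ± 0.11 (limma adjusted p = 0.00744), higher in the depleted libraries.

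Serpine2 (chromosome 1, 79794197 to 79861180) had the largest rise of the 9. Its level was 401, 1193 and 1418 TPM in the depleted libraries and 310, 842 and 1738 TPM in the poly(A) libraries. Both PD8 libraries lay above both PD2 libraries and both PD14 libraries above both PD8 libraries, so no 2 groups overlapped. The fitted change was 2.15 ± 0.23 (limma adjusted p = 0.0183). At PD2 it lay above 97.7% and 96.5% of the genes tested, and at PD14 above 99.6% and 99.5%. Both PD14 libraries lay above both PD8 libraries for 2 of the 9, Serpine2 and Timp2 (8.12% of all genes), and below them for 1, Plaur (7.07%).

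Tfpi2 (chromosome 6, 3962595 to 3988919) was the member that fell. It was listed at 5.66, 0.393 and 0.698 TPM in the depleted libraries. In the poly(A) libraries it was at 58.3, 10.3 and 6.16 TPM, which is 10.3-fold, 26.1-fold and 8.83-fold above the other method. Within each method PD2 was the highest library, but the depleted PD2 library was below both later poly(A) libraries, so the groups overlapped across methods. The fitted change was -2.51 ± 0.33 (limma adjusted p = 0.0221), understated at such low levels by the 1 TPM added before the log. With 0.1 TPM added instead, it was -3.04. The difference between methods was itself -2.75 ± 0.27 (limma adjusted p = 0.00517), lower in the depleted libraries.

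Some markers of other cell types moved beside Tfpi2. The summed level of 6 epithelial markers was 22.0, 9.57 and 5.30 TPM in the depleted libraries and 37.9, 8.25 and 2.34 TPM in the poly(A) libraries, most of it from the keratin genes Krt18 and Krt19. Of these 6, 3 passed the filter and those 2 fell, where 4.77% of all genes were called lower. TFPI2 is abundant in the placenta, and of 6 trophoblast markers only Prl2c2 passed the filter. It was at most 3.65 TPM except in the PD14 poly(A) library, at 26.6 TPM, while Tpbpa and Ctsq were at 0 in every library. Of 6 skeletal muscle markers, 4 passed the filter and fell (4.77% of all genes). The sum of the 6 was 48.8, 12.6 and 5.43 TPM and 103, 33.0 and 12.5 TPM. Of 6 neural markers, 4 passed the filter and 1 of these, Nes, fell (4.77% of all genes). Its level went from 19.6 to 4.96 TPM and from 38.7 to 4.98 TPM. The neural sum was 54.6, 26.5 and 20.7 TPM with depletion and 130, 104 and 99.3 TPM with poly(A) enrichment. Most of the poly(A) sum came from Tubb3, which did not fall there, at 82.6, 91.8 and 91.4 TPM. With depletion Tubb3 was at 26.6, 15.7 and 10.5 TPM. The part of these cell types in the change of Tfpi2 was not tested.

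**Figure D3:**
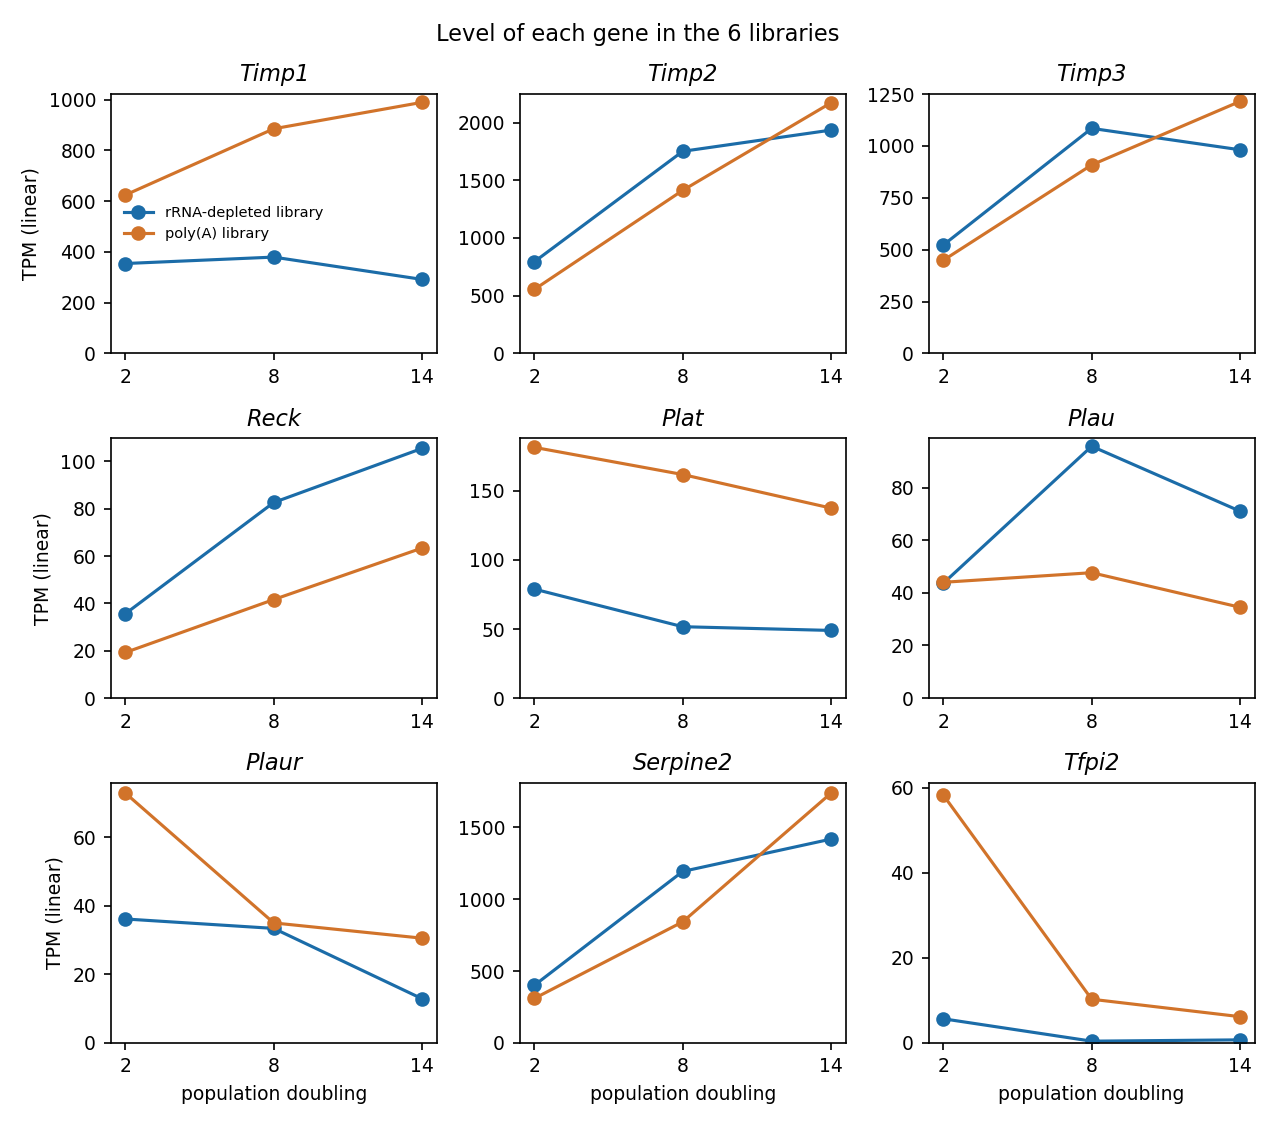
TPM (y axis, linear, from 0) of each of the 9 genes at population doubling 2, 8 and 14 (x axis), 1 point per library, joined within each library method. Timp2, Timp3, Reck and Serpine2 are lowest at PD2 in both methods, Tfpi2 is highest there, and Timp1 and Plau follow different courses in the methods.

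The activator genes gave smaller and less even values. Plat (chromosome 8, 22757727 to 22782844) was at 78.9, 51.7 and 49.0 TPM in the depleted libraries and at 182, 162 and 138 TPM in the poly(A) libraries. Its level was lower at each later harvest in both methods, but every poly(A) library lay above every depleted one. The fitted change from PD2 to PD14 was -0.54 with a 95% interval from -0.91 to -0.16 and did not pass (unadjusted p = 0.0138, limma adjusted p = 0.0767). The difference between methods, -1.43 ± 0.12 (limma adjusted p = 0.00410), was larger than that between harvests. Endothelium is a known source of tPA, and the summed level of 6 endothelial markers was 7.41, 6.75 and 7.21 TPM and 8.58, 4.82 and 3.75 TPM, with Tie1 at 0 in every library. Of the 2 that passed the filter, Kdr fell (4.77% of all genes), from 4.05 to 0.845 TPM and from 6.65 to 2.10 TPM. Tek was at 2.75 and 6.29 TPM and at 1.48 and 1.01 TPM. Their part in the values of Plat was not tested.

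Plau (chromosome 14, 20836660 to 20843385) was at 43.7, 95.7 and 71.0 TPM in the depleted libraries and at 44.0, 47.6 and 34.5 TPM in the poly(A) libraries. The PD2 libraries were nearly equal, and the methods parted at PD8 and PD14, where the depleted library held 2.01-fold and 2.06-fold more. Both PD8 libraries lay above both PD2 libraries, as for Timp2, Timp3, Reck and Serpine2, 5 of the 9 where 19.5% of all genes did so. Between PD2 and PD14 the pairs gave 0.69 and -0.34, with a fitted value of 0.17, a 95% interval from -0.55 to 0.89 and a limma adjusted p of 0.705. The ratio of Plat to Plau was 4.13, 3.40 and 3.99 in the poly(A) libraries. In the depleted libraries it was 1.81, 0.540 and 0.690. Plat was thus the more abundant activator in every library except the depleted ones at PD8 and PD14.

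Plaur (chromosome 7, 24462484 to 24475968) was at 36.1, 33.4 and 12.9 TPM in the depleted libraries and at 72.8, 35.0 and 30.5 TPM in the poly(A) libraries. Both PD8 libraries lay below both PD2 libraries, as for 13.7% of all genes and no other member, and both PD14 libraries below both PD8 libraries, so no 2 groups overlapped. The fitted change of -1.32 ± 0.29 just missed the threshold (limma adjusted p = 0.0505), with pairs at -1.42 and -1.23. It passed when low genes were filtered at 5 TPM (adjusted p = 0.0494), when TPM were rescaled to a common sum (adjusted p = 0.0498) and without the PD2 depleted library (adjusted p = 0.0376), the lowest value with 1 library left out, the highest being 0.172. Plaur did not pass in limma with 0.1 TPM added (adjusted p = 0.0511) or with quantile normalization (adjusted p = 0.0523). Nor did it pass with no mean-variance trend (adjusted p = 0.0733) or with no filter (adjusted p = 0.0893). Without the term for library method its adjusted p was 0.432. Leukocytes carry much uPAR. The summed level of 8 macrophage and leukocyte markers was 135, 26.1 and 37.7 TPM in the depleted libraries. It was 380, 689 and 649 TPM in the poly(A) libraries, and most of the sum came from Lyz2 in every library. None of the 8 was at 0 in every library. In limma 0 of them passed, against 11.2% of all genes, with 2 at an unadjusted p under 0.05, against 32%. Their part in the values of Plaur was not tested.

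Set against the activators in the same library, Serpine2 took a larger place at each later harvest. The ratio of its TPM to the summed TPM of Plat and Plau was 3.27, 8.10 and 11.8 in the depleted libraries. It was 1.37, 4.02 and 10.1 in the poly(A) libraries. The activator sum was 123, 147 and 120.0 TPM and 226, 210 and 172 TPM, or 0.979-fold and 0.763-fold from PD2 to PD14. The 9 genes together made up 0.242%, 0.491% and 0.519% of listed TPM in the depleted libraries, against 0.231%, 0.434% and 0.638% in the poly(A) ones.

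The passage series was also read as an early step, PD8 against PD2, and a late step, PD14 against PD8. In the early step the fitted log2 values were 1.51 for Serpine2, 1.24 for Timp2, 1.13 for Reck, 1.03 for Timp3 and -2.33 for Tfpi2. In the late step the same genes were at 0.65, 0.38, 0.47, 0.14 and -0.18. The larger part of each fitted difference thus lay in the early step, while Plaur was at -0.57 and then -0.75. The pairs had the same sign for 9 of the 9 in the early step (69.4% of all genes), for 6 in the late step (52.7%) and for 7 from PD2 to PD14 (69.6%). Levels went up at each harvest for 3 of the 9 in the depleted libraries (Timp2, Reck and Serpine2; 30.6% of all genes) and for 5 in the poly(A) libraries (with Timp1 and Timp3; 30.4%). They went down at each harvest for 2 in the depleted libraries (Plat and Plaur; 24.3%) and for 3 in the poly(A) libraries (with Tfpi2; 28.4%). In limma 0 of the 9 passed in the early step, where 0.0225% of all genes did, with 6 of the 9 at an unadjusted p under 0.05 against 20.3% of all genes. In the late step 0 of the 9 and 0% of all genes passed, with 3 of the 9 (Serpine2, Reck and Plaur) at an unadjusted p under 0.05 against 5.6% of all genes. Leaving out either PD2 library brought calls in the early step, among the members and among all genes alike.

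The difference of the late from the early step was tested directly. It was 2.14 ± 0.57 for Tfpi2, -0.90 ± 0.33 for Timp3 and -0.66 ± 0.23 for Reck, each at an unadjusted p under 0.05 (0.0124, 0.0389 and 0.0336). None of the 9 passed after adjustment in limma (adjusted p = 0.9996 for each), nor did any other gene (0%), and 4.25% of all genes had an unadjusted p under 0.05. A test of any change among the 3 groups called Reck (adjusted p = 0.0415) and Serpine2 (adjusted p = 0.0447), 2 of the 9, against 1.46% of all genes, with 7 of the 9 at an unadjusted p under 0.05 (24.2% of all genes). Timp2 and Tfpi2 were next, at 0.0520 and 0.0509. When any 1 of the PD8 or PD14 libraries was left out, the members lost their calls in this limma test, as did nearly all other genes. Without the PD2 depleted library more of the members and more of all genes were called.

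**Figure D4:**
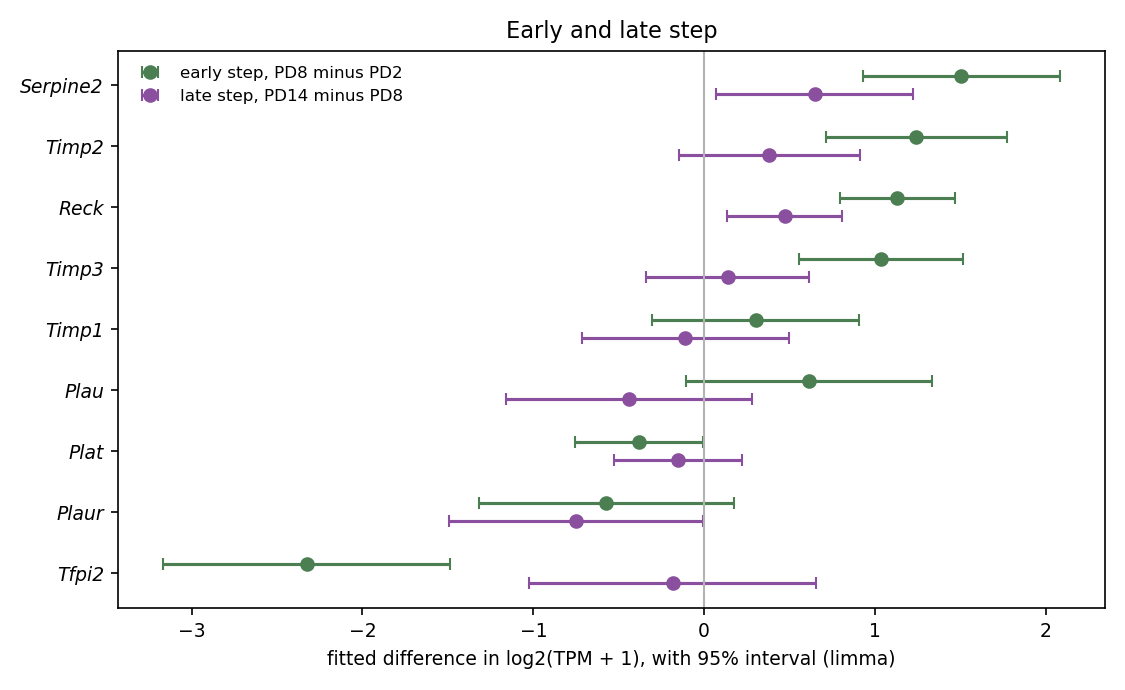
Fitted difference in log2(TPM + 1) with 95% intervals (x axis) for the early step, PD8 minus PD2, and the late step, PD14 minus PD8, of the 9 genes. The early values of Serpine2, Timp2, Reck and Timp3 lie between 1.03 and 1.51 and their late values between 0.14 and 0.65.

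Several members differed between library methods as much as between harvests. Of the 9, Reck was called higher and Timp1, Plat and Tfpi2 lower in the depleted libraries, 4 in all where 37.3% of all genes were called. The 1 higher stands against 20.9% and the 3 lower against 16.4%, and 6 of the 9 had an unadjusted p under 0.05 against 50.7% of all genes. Timp1 differed by -1.27 ± 0.20 (limma adjusted p = 0.0105). When 1 PD8 library was left out, whichever it was, the calls of Reck and Timp1 were lost. Serpine2, Timp2 and Timp3 were at 0.19, 0.22 and 0.06 between methods, with 95% intervals from -0.28 to 0.66, from -0.21 to 0.65 and from -0.34 to 0.45. These intervals are for the mean over the 3 harvests.

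Genes that work with the 9 were taken from 7 lists with 60 genes in all, of which 50 passed the filter. Between PD2 and PD14, 8 of the 50 rose and 5 fell, where 6.41% of all genes were called higher and 4.77% lower. The lists were chosen with earlier results known. Plasminogen itself, Plg, was at most 0.0660 TPM in any library. Of its 4 surface receptor genes tested, 0 passed in limma, and the largest value was that of Eno1, enolase 1, a gene with near-identical copies elsewhere in the genome, at -0.59 ± 0.15 (unadjusted p = 0.00943, adjusted p = 0.0637). The libraries held transcripts of activators, receptor and inhibitors with hardly any of the plasminogen gene.

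Metalloproteinase genes that TIMPs or RECK can restrain rose in part, 4 of 14 with 0 falling (6.41% and 4.77% of all genes). Mmp2, gelatinase A, was at 466, 731 and 1193 TPM in the depleted libraries and at 312, 601 and 1008 TPM in the poly(A) libraries (1.52 ± 0.15, limma adjusted p = 0.0166). Mmp14, the membrane protease that works with TIMP2 on pro-MMP2, was between 676 and 855 TPM in all 6 libraries and did not pass (0.12 ± 0.14). The ratio of Timp2 to Mmp14 was 1.07, 2.59 and 2.44 in the depleted libraries, against 0.721, 1.65 and 2.54 in the poly(A) ones, above its PD2 value at both later harvests. The ratio of Timp2 to Mmp2 was 1.70, 2.39 and 1.62 and 1.78, 2.35 and 2.15, above its PD2 value at both later harvests with poly(A) enrichment but at PD8 alone with depletion. Mmp19 rose by 1.55 ± 0.22 and shares 789 exonic bases with Tmem198b on the opposite strand. Adamts1 and Adamts5, aggrecan-cutting proteases, also rose, by 0.96 ± 0.20 and 1.09 ± 0.12. Mmp3, stromelysin 1, had the largest value, 3.32 ± 0.79, but did not pass (adjusted p = 0.0577), and its pairs were 3.07-fold and 33.4-fold higher. Mmp13, collagenase 3, did not pass either (adjusted p = 0.760), with 5.49-fold less in the depleted and 15.0-fold more in the poly(A) library at PD14 than at PD2.

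Of 6 other inhibitors tested, Serping1, the C1 inhibitor of complement and contact proteases, was the 1 that rose (6.41% of all genes). It went from 35.5 to 357 TPM with depletion and from 15.8 to 139 TPM with poly(A) enrichment (3.17 ± 0.21, limma adjusted p = 0.0125). Tfpi, the relative of Tfpi2, was between 30.9 and 53.0 TPM in all 6 libraries, at 0.33 ± 0.18 (adjusted p = 0.262). Serpinb2, another serpin acting on uPA, was below the filter, with 4.58 TPM in the PD14 poly(A) library and less than 1 TPM in the other 5. Among 13 clearance receptors and surface partners, 1 rose and 3 fell (6.41% and 4.77% of all genes). Lrpap1, the chaperone of LDL receptor relatives that clear protease and serpin complexes, rose by 1.45 ± 0.12. The receptor genes Lrp2 and Lrp8 and the integrin gene Itgb3 fell by 1.75, 1.68 and 1.24 on the log2 scale. Lrp2 was low, going from 3.99 to 0.621 TPM with depletion and from 4.94 to 0.616 TPM with poly(A) enrichment. At such levels the 1 TPM added before the log understates the change. Lrp1, the main clearance receptor of fibroblasts, was at 0.54 ± 0.14 (adjusted p = 0.0705).

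Of 5 genes of coagulation start and protease-activated receptors, 1 rose and 2 fell (6.41% and 4.77% of all genes). Thrombomodulin, Thbd, rose by 1.78 ± 0.27, from 102 to 518 TPM and from 38.1 to 91.1 TPM. The thrombin receptor gene F2r fell by 0.79 on the log2 scale, from 244 to 127 TPM and from 546 to 349 TPM. F2rl1, which encodes the trypsin-activated receptor PAR2, fell from 4.97 to 0.366 TPM and from 69.4 to 2.00 TPM. Tissue factor, F3, was at 0.09 ± 0.42 (limma adjusted p = 0.898). Its pairs went opposite ways, at -0.77 with depletion and 0.96 with poly(A) enrichment. Of 7 genes of growth factors that activators or plasmin can process, with the receptor gene Met and the binding protein gene Ltbp1, Hgf was the 1 called. It rose by 1.90 ± 0.22, where 6.41% of all genes were called higher. Hgf shares 484 exonic bases with an annotated transcript on the same strand. Of the WNT7 partners of RECK, Adgra2 was at -0.85 ± 0.24 (adjusted p = 0.0791), and Wnt7a and Wnt7b were below 0.4 TPM in every library. The adjusted p of the 13 called genes lay between 0.0125 and 0.0459. When 1 PD14 library was left out, these calls were lost in limma, and when 1 PD8 library was, nearly all of them were. Nearly all calls among the other genes were lost in the same fits.

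**Figure D5:**
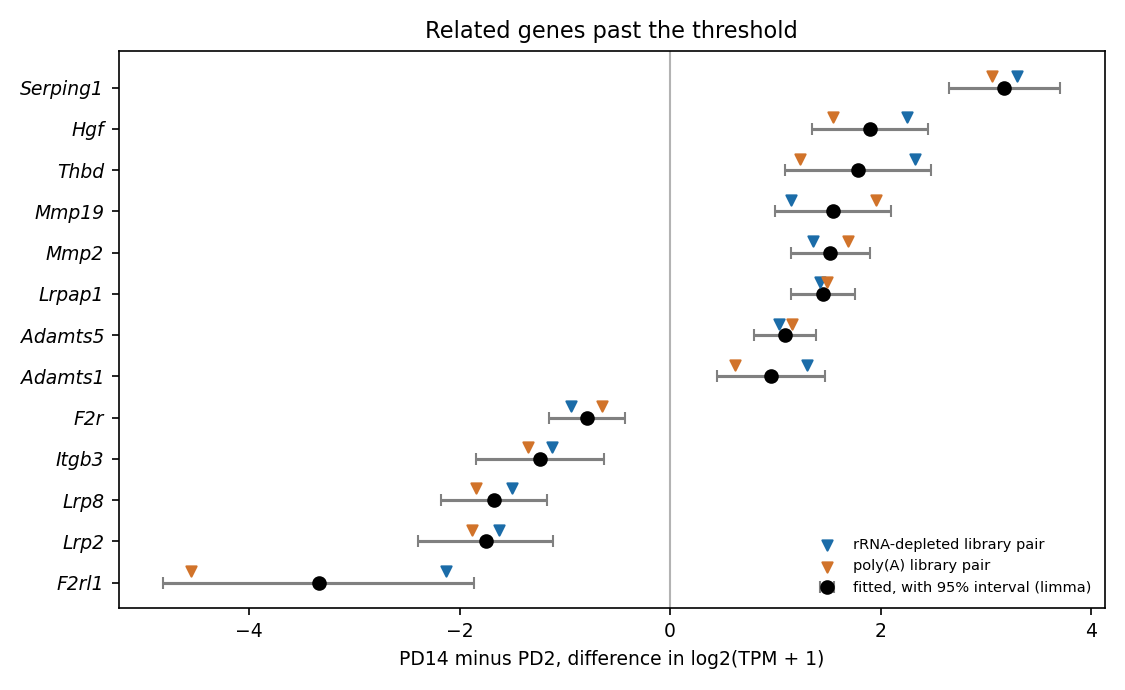
Difference in log2(TPM + 1) between PD14 and PD2 (x axis) for the 13 related genes past the threshold. Circles are fitted values with their 95% interval and triangles the single differences of the rRNA-depleted and the poly(A) pair; both triangles lie on the same side of 0 for each gene.

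Genes with courses most like those of Serpine2 and Tfpi2 were ranked by Pearson's r over the 6 libraries, after the mean of each method was taken out, among 10665 genes with a mean of at least 5 TPM. For Serpine2 they were Arfgef2, Zfp523, Aldh1a7, Sfrp1 and Atp2b4, with r from 0.9986 to 0.9994. For Tfpi2 they were Paics, Trnt1, Polh, Tbl3 and Selenoi, with r from 0.9983 to 0.9991. Values this high, over 6 points that share 2 methods and 3 harvests, were not confined to these genes. Of the 10665 genes, 68 reached 0.99 for Serpine2 and 43 for Tfpi2. The fitted change from PD2 to PD14 of the 5 genes most like Serpine2 ran from 0.41 for Zfp523 to 2.70 for Aldh1a7, against 2.15 for Serpine2. That of the 5 genes most like Tfpi2 ran from -0.34 for Trnt1 to -0.76 for Paics, against -2.51 for Tfpi2, and Paics was the 1 of these 5 that was called.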

How the data were processed

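RNA of 6 MEF libraries was measured, 2 for each of PD2, PD8 and PD14. The authors deposited TPM for 21988 gene symbols; per the submitters' processing notes, bcl2fastq, cutadapt 1.14, HISAT2 2.0.5, StringTie 1.3.1c and mm10 were used, and the gene annotation is not given in the sources used here. The TPM were taken as log2(TPM + 1) and tested with limma 3.58.1 in R 4.3.3, with a mean-variance trend and library method (replicate number) as an additive block, over 13332 genes with at least 1 TPM in at least 2 libraries. The fit had 2 residual and 3.22 prior degrees of freedom. P-values were two-sided and Benjamini-Hochberg adjusted over all genes tested, with a threshold of 0.05, and the code was tested on simulated data. Libraries with the same number deviated together, with correlations over genes of 0.752 (PD2 and PD8), 0.664 (PD2 and PD14) and 0.854 (PD8 and PD14); the pairing comes from the labels, which tie the number to the method. Gene spans and exon overlaps came from GENCODE M21 and promoters from RefSeq, both GRCm38. Tables and plots were made with pandas 2.3.3 and matplotlib 3.10.9. The 9 members and the related lists were chosen with earlier results of these data known. All 9 members are named; of each related list, those past the threshold are, or the largest change where none passed, and some further members were chosen after their values were seen. Alternatives were other pseudocounts, filters, scalings, no trend, no block and each library left out. Some genes of this system are not reported here.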

Additional observations from a re-analysis of the deposited data

Results flagged for a closer look

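For 2 members the pairs of libraries moved opposite ways between PD2 and PD14, which was not tested, since each method has 1 library per harvest. On the log2(TPM + 1) scale Timp1 differed by -0.28 with rRNA depletion and by 0.66 with poly(A) enrichment. Plau differed by 0.69 with rRNA depletion and by -0.34 with poly(A) enrichment. Of all genes tested, 69.6% had the same sign in both methods, and of the 9 members 7 did.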

How the results depend on the processing

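Of the 9 members, 5 passed between PD2 and PD14; 2 did with no filter on low values and 0 without the replicate block (limma; 5 at an unadjusted p under 0.05), and with single libraries left out 0 to 6 did. The test of any change called 2, and 0 with no filter, with no trend or without the block (limma, with 7, 6 and 3 at an unadjusted p under 0.05). In these 3 settings it called 0 of all genes too. Its calls also changed with the library left out, for the members and over all genes. Left-out libraries gave 0 to 5 calls in the early step, 2 to 5 between methods and 0 to 18 of the 50 related genes, of which 13 passed in the main analysis, 7 of 59 with no filter and 0 of 50 without the block (limma; 9 at an unadjusted p under 0.05). Over all genes 1490 passed between PD2 and PD14, 404 with no filter, 938 with no trend, 0 without the block and 0 to 1804 with single libraries left out. In the early step and between methods, the calls over all genes also changed with the library left out. With no filter more genes were tested, 17926, and leaving out a library left fewer samples. Direction turned only in values that had not passed. Over left-out libraries the values between PD2 and PD14 ran from -0.18 to 0.56 for Timp1 and from -0.33 to 0.68 for Plau. In the early step Timp1 ran from -0.036 to 0.64, and in the late step Timp1 from -0.48 to 0.26, Timp3 from -0.14 to 0.41 and Tfpi2 from -0.69 to 0.32. Between methods Timp3 ran from -0.044 to 0.24. Depth is unknown, so the counting error of low values such as those of Tfpi2 cannot be given.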
